A study of Mus musculus with 20 samples.

Results

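Cholesterol synthesis and its regulation was followed in the neocortex of ageing mice through 32 genes chosen by function: the enzymes that lead to cholesterol, the proteins that sense sterols and switch those enzymes on, a few proteins that move or degrade sterols, and 4 fatty acid enzymes under the same control. Of the 32 genes, 29 had a probe set named for them on the array. All 29 passed the limit on low signal and were tested, among 13351 genes in all. Acat2, Nr1h2 and Soat1 were not analysed here. There were 4 groups of 5 male B6C3F1 mice, a first-generation cross of C57BL/6 and C3H, housed singly. The mixture mice were 30 months old and had eaten a diet with 500 mg/kg of α-tocopherol and 500 mg/kg of γ-tocopherol since 15 months of age. The α-tocopherol mice were 30 months old and had eaten 1000 mg/kg of α-tocopherol since 15 months of age. The old controls, 30 months old, and the young controls, 5 months old, ate the control diet, for which the sources used here give no tocopherol content. The structural difference is a methyl group on the ring, present in α-tocopherol and missing in γ-tocopherol, and the α-tocopherol dose also differed between the supplemented groups. Each mouse had its own Affymetrix array, so the error below is the spread between mice of one sex and one hybrid cross.

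Brain cholesterol is made in the brain itself, because lipoproteins of the blood do not cross the blood-brain barrier. Acetyl-CoA is built into mevalonate and farnesyl diphosphate, a pair of farnesyl units is joined to squalene, squalene is closed to lanosterol, and lanosterol is trimmed to cholesterol. When membrane sterol is low, SCAP carries the SREBP transcription factors to the Golgi for cleavage, and the freed factor switches on these enzymes together with INSIG1, which holds SCAP back and closes the loop. Oligodendrocytes use much of the product for myelin, astrocytes supply neurons, and neurons turn surplus cholesterol into 24-hydroxycholesterol for export.

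SREBP factors bind a short sterol element beside CCAAT and GC boxes, so the promoters of members were searched for these letters. Mouse promoters of RefSeq (GRCm38.p6), each covering 250 bases before and 50 after an annotated start, were found by symbol for 26 of the 32 members, 35 promoters in all. Both strands were searched for the sterol element TCACNCCAC, the CCAAT box CCAAT and the GC box GGGCGG, and no match below overlaps another motif. The sterol element was present in 1 of the 26 members, against 1.45% of the 10772 tested genes with a promoter and 1.24% of all 32851 promoters. A CCAAT box was present in 21 of the 26 members, against 42.4% of those tested genes and 37.4% of all promoters. A GC box was present in 22 of the 26 members, against 66.3% of those tested genes and 35.7% of all promoters. Members and tested genes counted once if any of their promoters matched. The shares of all promoters count single promoters, those of untested genes included. A match describes these letters in this window and is not a binding site shown by data. The absence of a match says nothing about letters outside the window, or about other spellings of the element inside it. The promoter with the sterol element, that of Hmgcs1, is shown on the plus strand of chr13:119690101-119690400, and the element, TCACCCCAC at 119690214 to 119690222, begins 137 bases before the start. The promoters of Insig1, at chr5:28071162-28071461 on the plus strand, and of Mvd, at chr8:122443373-122443672 on the minus strand, are shown because these genes had the lowest adjusted p of the members with age, a choice made after their values were seen. Capitals mark each sterol element, CCAAT box (ATTGG on the other strand) and GC box (CCGCCC on the other strand).
Hmgcs1: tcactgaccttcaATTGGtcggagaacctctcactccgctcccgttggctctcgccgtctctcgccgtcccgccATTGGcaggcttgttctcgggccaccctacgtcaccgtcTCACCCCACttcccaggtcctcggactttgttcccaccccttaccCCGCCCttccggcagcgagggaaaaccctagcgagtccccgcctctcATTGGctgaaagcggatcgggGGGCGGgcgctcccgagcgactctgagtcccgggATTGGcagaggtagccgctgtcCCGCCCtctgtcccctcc
Insig1: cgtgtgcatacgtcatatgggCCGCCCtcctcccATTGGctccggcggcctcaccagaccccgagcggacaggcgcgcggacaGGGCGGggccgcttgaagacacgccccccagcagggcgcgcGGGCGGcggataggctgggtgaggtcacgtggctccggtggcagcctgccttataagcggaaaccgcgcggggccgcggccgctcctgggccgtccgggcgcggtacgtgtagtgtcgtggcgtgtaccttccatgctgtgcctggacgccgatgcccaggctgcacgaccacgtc
Mvd: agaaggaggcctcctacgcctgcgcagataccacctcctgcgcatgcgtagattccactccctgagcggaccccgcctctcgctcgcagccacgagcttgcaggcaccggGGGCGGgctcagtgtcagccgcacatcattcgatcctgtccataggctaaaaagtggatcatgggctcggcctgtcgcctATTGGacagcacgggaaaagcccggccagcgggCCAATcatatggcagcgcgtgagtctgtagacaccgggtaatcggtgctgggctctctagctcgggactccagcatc
The Hmgcs1 window holds 4 CCAAT boxes and 3 GC boxes, that of Insig1 1 and 3, and that of Mvd 2 and 1.

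Signals below are the deposited linear intensities of the brightest probe set of each gene, and log2 fold changes were taken on log2(signal + 16), so they slightly understate changes of dim genes. A gene was called when limma's moderated test gave a Benjamini-Hochberg adjusted p under 0.05 over all 13351 genes. The arrays shared a trimmed mean of 1000, while their median signal ran from 292.3 to 331.5 in mixture mice, 280.3 to 317.7 in α-tocopherol mice, 283.8 to 313.3 in old controls and 316.0 to 331.2 in young controls. The 3'/5' signal ratio of β-actin, a measure of RNA integrity, was 1.22 to 1.60 in mixture mice, 1.43 to 2.36 in α-tocopherol mice, 1.73 to 2.52 in old controls and 1.42 to 1.74 in young controls. The 18S ribosomal probe read 708 to 1138 in mixture mice, 655 to 2504 in α-tocopherol mice, 1184 to 2068 in old controls and 421 to 794 in young controls. All 14 neuron markers listed passed the low-signal limit, which every gene tested had to pass. In such bulk tissue, fewer cells of a type and less RNA per cell cannot be told apart.

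The comparison of old with young control neocortex asks what age changes without a supplement. Of the 29 members, 10 rose in old controls and 0 fell, a share of 34.5% higher, where 12.4% of all genes tested rose and 10.4% fell. The genes that rose were Hmgcs1, Mvk, Mvd and Fdps of the mevalonate arm, Fdft1 at the squalene step, Tm7sf2 and Ebp on the way from lanosterol to cholesterol, the feedback protein Insig1, and the fatty acid enzymes Fasn and Scd2. The log2 fold change was positive for 25 members and negative for 4, with a median of 0.25 over the members and -0.02 over all genes tested. When array medians were set equal, a scaling that moved the median of all genes to 0.11, 17 members were called, all higher, and 3075 of 3524 called genes were higher, against 1656 of 3039 with the values as deposited. When the β-actin ratio entered the fit as a further term, 7 members were called, and 1158 of all 13351 genes tested. Not all of these 7 members were among the 10 above.

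**Figure D1:**
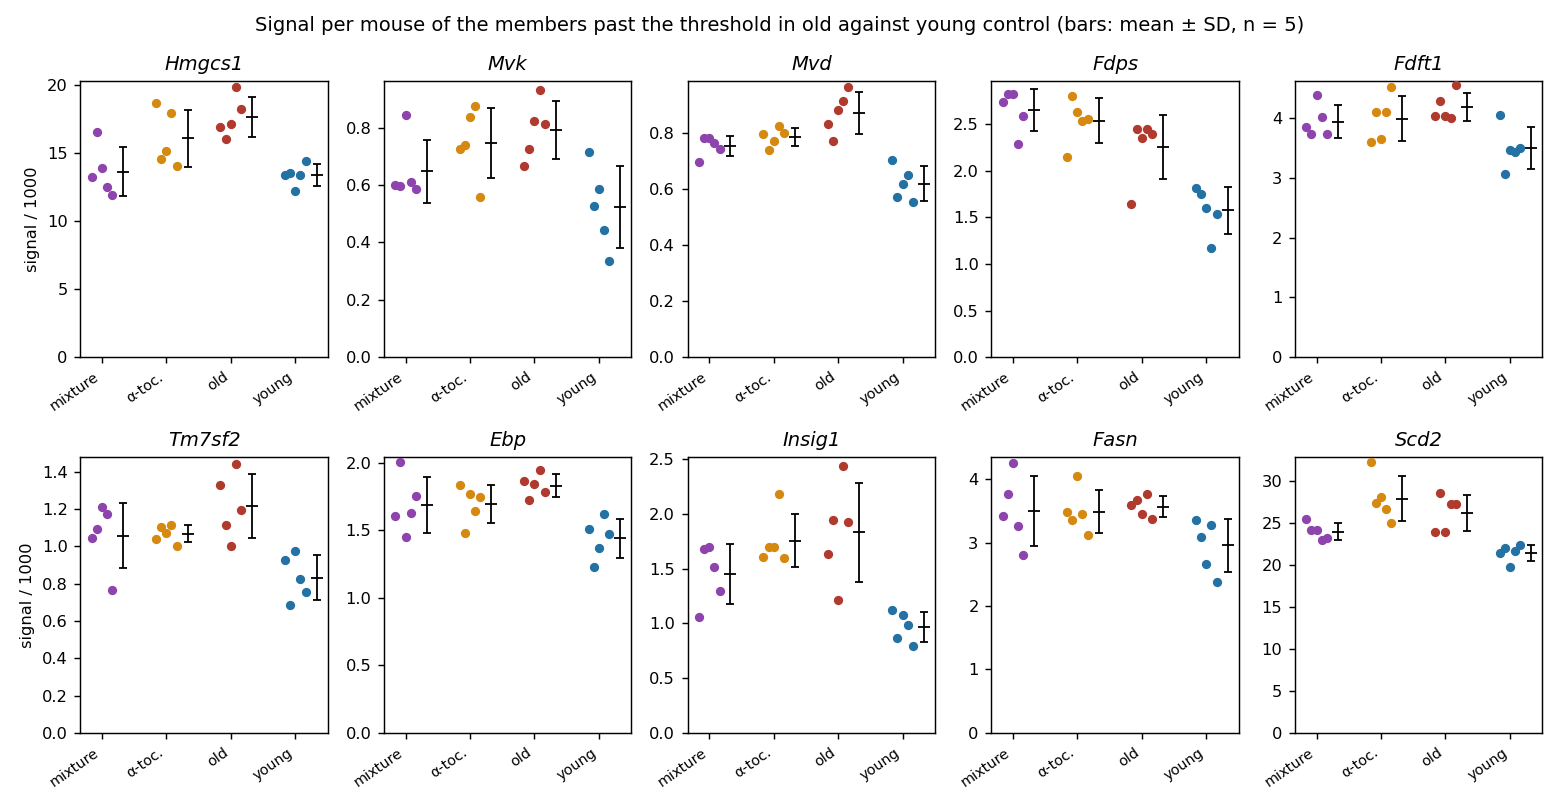
Linear signal (in units of 1000, axes start at 0) of each mouse for the 10 members called in old against young controls, with mixture, α-tocopherol, old control and young control mice side by side; bars are mean ± SD of 5 mice. Insig1 read at least 1212.5 in every old control and at most 1126 in every young control, and 3 of the 5 Hmgcs1 signals of mixture mice lie within the range of young controls.

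Insig1, which holds the SCAP and SREBP complex in the endoplasmic reticulum when sterol is plentiful, had the largest rise of the 29 members. Its signals were 1630.3, 1945, 1212.5, 2439.9 and 1928 in old controls, against 1126, 869.5, 1073.5, 983 and 791 in young controls. The 2 groups did not overlap, although old control mouse 3 lay close to the young controls. The log2 fold change was 0.88 ± 0.15 (SE; 95% interval 0.57 to 1.20), a 1.84-fold rise, with a limma adjusted p of 0.000443. Insig2, a relative of Insig1 with the same role, did not pass the test, at -0.12 ± 0.07 with an adjusted p of 0.195. Its 3 tested probe sets were all negative, at -0.12, -0.16 and -0.22. Srebf1, the SREBP gene tied mainly to fatty acid synthesis, read 2102, 2378, 2021, 2681 and 2545 in old controls, against 1910.2, 1731, 1985, 2005.5 and 1796 in young controls. These groups did not overlap, but the change of 0.31 ± 0.12 had an adjusted p of 0.0718. Srebf2, tied mainly to cholesterol synthesis, and Scap, the sterol-sensing escort of both, also missed the threshold at 0.17 and 0.29, with adjusted p of 0.198 and 0.118.

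In the mevalonate arm, 4 of the 6 tested genes rose and all 6 were positive, with a median log2 fold change of 0.44. Hmgcs1 encodes the enzyme that makes HMG-CoA, the substrate from which mevalonate is formed. Its signals were 16915, 16016.5, 17089.8, 19866 and 18202 in old controls, against 13402.5, 13534, 12201.5, 13344 and 14432 in young controls. Every old control was above every young control, and the log2 fold change was 0.39 ± 0.09 with an adjusted p of 0.00314. The mean of its 4 tested probe sets was at 0.14, with an adjusted p of 0.113. Mvd encodes the decarboxylase that yields isopentenyl diphosphate, the first isoprene unit. Its signals were 830.1, 772, 881, 913 and 965 in old controls, against 705, 571, 618, 650.0 and 554 in young controls, without overlap. Old over young gave a log2 fold change of 0.48 ± 0.09 with an adjusted p of 0.000566, while the other Mvd probe set was at 0.01.

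Mvk, the kinase that phosphorylates mevalonate, read 665, 726, 822, 933 and 814 in old controls, against 714, 528, 587, 444.5 and 336 in young controls. The groups overlapped, because young control mouse 1 was above old control mouse 1. Its change of 0.62 ± 0.16 on the log2 scale had an adjusted p of 0.00822. Fdps, which joins isoprene units into farnesyl diphosphate, read 1646, 2449.7, 2348.5, 2442 and 2388 in old controls, against 1816, 1752, 1603, 1172 and 1534 in young controls. Old control mouse 1 lay among the young controls and the other 4 old controls lay above them. Fdps rose by 0.51 ± 0.12 on the log2 scale with an adjusted p of 0.00307. The other tested genes of the arm did not pass: Pmvk, the second kinase, was at 0.08 with an adjusted p of 0.695, and Idi1, the isomerase between the isoprene units, was at 0.19 with an adjusted p of 0.237.

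Between farnesyl diphosphate and lanosterol, 1 of 3 genes rose. Fdft1, squalene synthase, the first step committed to sterols, read 4037, 4278, 4033, 4008 and 4545 in old controls, against 4042.5, 3065, 3464, 3436 and 3503 in young controls. Young control mouse 1 lay inside the old control range and the other young controls lay below it. Fdft1 rose by 0.26 ± 0.08 on the log2 scale with an adjusted p of 0.0173, and without young control mouse 2 the adjusted p was 0.0594. Sqle, the oxygenase that prepares squalene for ring closure, was at 0.23 ± 0.09 with an adjusted p of 0.0538. Lss, which closes the ring to lanosterol, was at -0.08 ± 0.13 with an adjusted p of 0.680.

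From lanosterol to cholesterol, 2 of 8 genes rose. Tm7sf2, a sterol reductase of the early steps, read 1327, 1113, 1002, 1442 and 1193 in old controls, against 928, 685, 973, 822.5 and 752 in young controls. The groups did not overlap, and the log2 fold change was 0.54 ± 0.12 with an adjusted p of 0.00295. Ebp, the isomerase that shifts the ring double bond, read 1865.5, 1722, 1846.5, 1946 and 1784 in old controls, against 1513, 1233, 1371, 1618 and 1471 in young controls. All old controls were above all young controls, and the log2 fold change was 0.35 ± 0.09 with an adjusted p of 0.00669. The other 6 genes had log2 fold changes between -0.12 for Sc5d, the desaturase late in the pathway, and 0.26 for Cyp51, the lanosterol demethylase. Cyp51 and Hsd17b7, a ketosteroid reductase of the demethylation steps, missed the threshold narrowly, with adjusted p of 0.0546 and 0.0542. The Hsd17b7 value is that of its brightest probe set, and its other tested probe sets were negative, so its direction depends on the probe set.

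Of the genes for sterol transfer, turnover and the liver X receptors, 0 of 3 passed. Cyp46a1 encodes the neuronal hydroxylase that makes 24-hydroxycholesterol, the main route by which cholesterol leaves the brain. Its signals were 12456, 11741, 12849.6, 12226 and 11912 in old controls, against 11863, 11444, 11687, 12948 and 10935 in young controls. The groups overlapped, and the log2 fold change was 0.06 ± 0.06 (95% interval -0.07 to 0.19, adjusted p 0.544). Stard4, a carrier of sterol between membranes, was at 0.02. Nr1h3, a liver X receptor that responds to oxysterols, was at -0.33 ± 0.24, with the widest error of the 29 members. Among the fatty acid enzymes, Scd2, the main stearoyl-CoA desaturase of mouse brain, read 23947, 28637, 23919, 27342.5 and 27317 in old controls, against 21503, 22017, 19849, 21650.3 and 22379 in young controls. The groups did not overlap, and the log2 fold change was 0.29 ± 0.07 with an adjusted p of 0.00388, but it was 0.05 after quantile normalization, with an adjusted p of 0.547, and 0.11 after cyclic loess, with an adjusted p of 0.160. Fasn, fatty acid synthase, read 3588, 3665, 3446, 3768 and 3378 in old controls, against 3364, 3087, 2668, 3271 and 2386 in young controls. These groups did not overlap, and the log2 fold change was 0.28 ± 0.10 with an adjusted p of 0.0472, but the call was lost in 14 of 23 alternatives, 8 of which left out 1 mouse (any old control, or young control mouse 2, 3 or 5; adjusted p 0.0563 to 0.144). Fads2, the first desaturase of long-chain polyunsaturated fatty acids, missed the threshold at 0.29 with an adjusted p of 0.0556, and Fads1, the second, was at 0.02 with an adjusted p of 0.899.

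**Figure D2:**
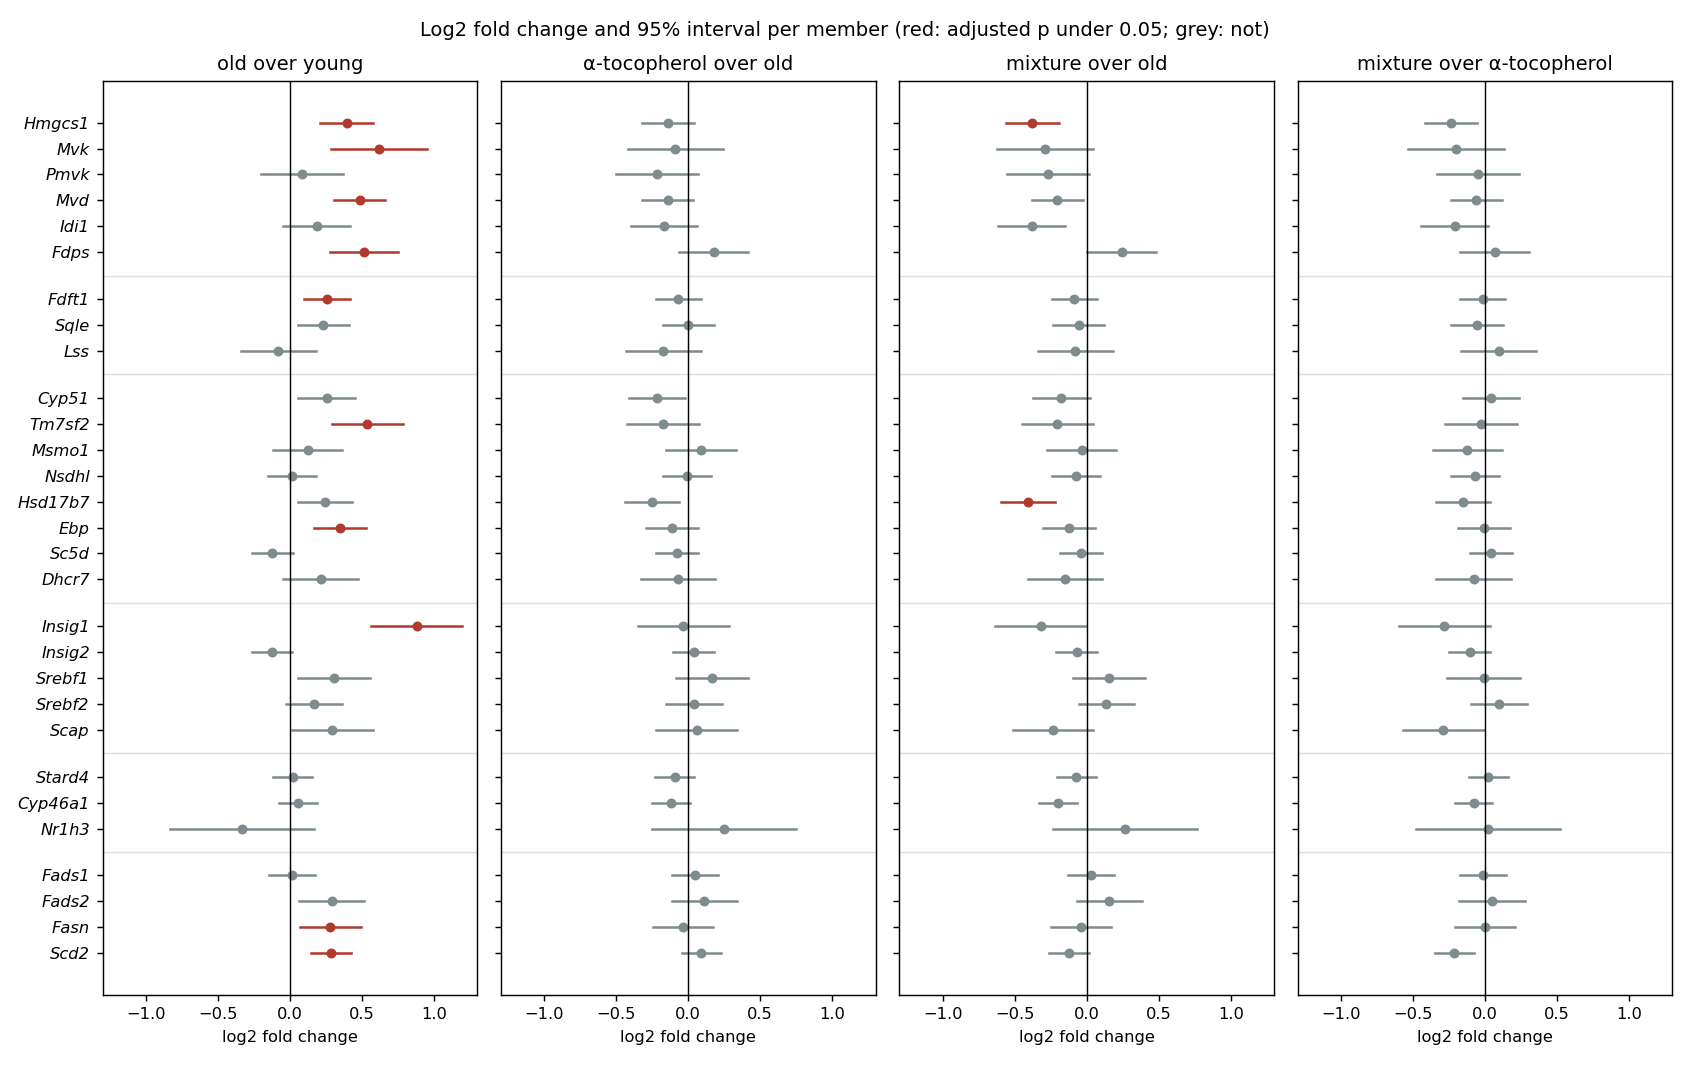
Log2 fold change (points) and 95% interval (lines) of the 29 members, grouped by role, in old over young control, α-tocopherol over old control, mixture over old control and mixture over α-tocopherol; red marks an adjusted p under 0.05. Red points are 10 in the first panel, all above 0, 0 in the second, 2 in the third, both below 0, and 0 in the last.

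Probe sets of one gene did not always move alike. Of the 29 members, 15 had more than 1 tested probe set, and in 6 of these the probe sets differed in sign between old and young controls. Mvd is represented by a probe set whose name marks probes that may also match other transcripts, and its other probe set, of a unique design, was at 0.01 ± 0.10 in old over young controls with an adjusted p of 0.979. Lss showed the reverse, with -0.08 for the brightest probe set and 0.42 ± 0.10 for the next, whose adjusted p over all probe sets was 0.00760. Of the 4 tested probe sets of Hmgcs1, the brightest gave 0.39 and the others 0.02, 0.23 and -0.10. The second probe set of Fdft1 gave 0.62 ± 0.09 with an adjusted p of 0.000251, and that of Mvk gave 0.89 ± 0.34 with an adjusted p of 0.0709. Insig1, Tm7sf2, Ebp, Fasn and Fdps had 1 tested probe set each, so no second reading exists among those tested.

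**Figure D3:**
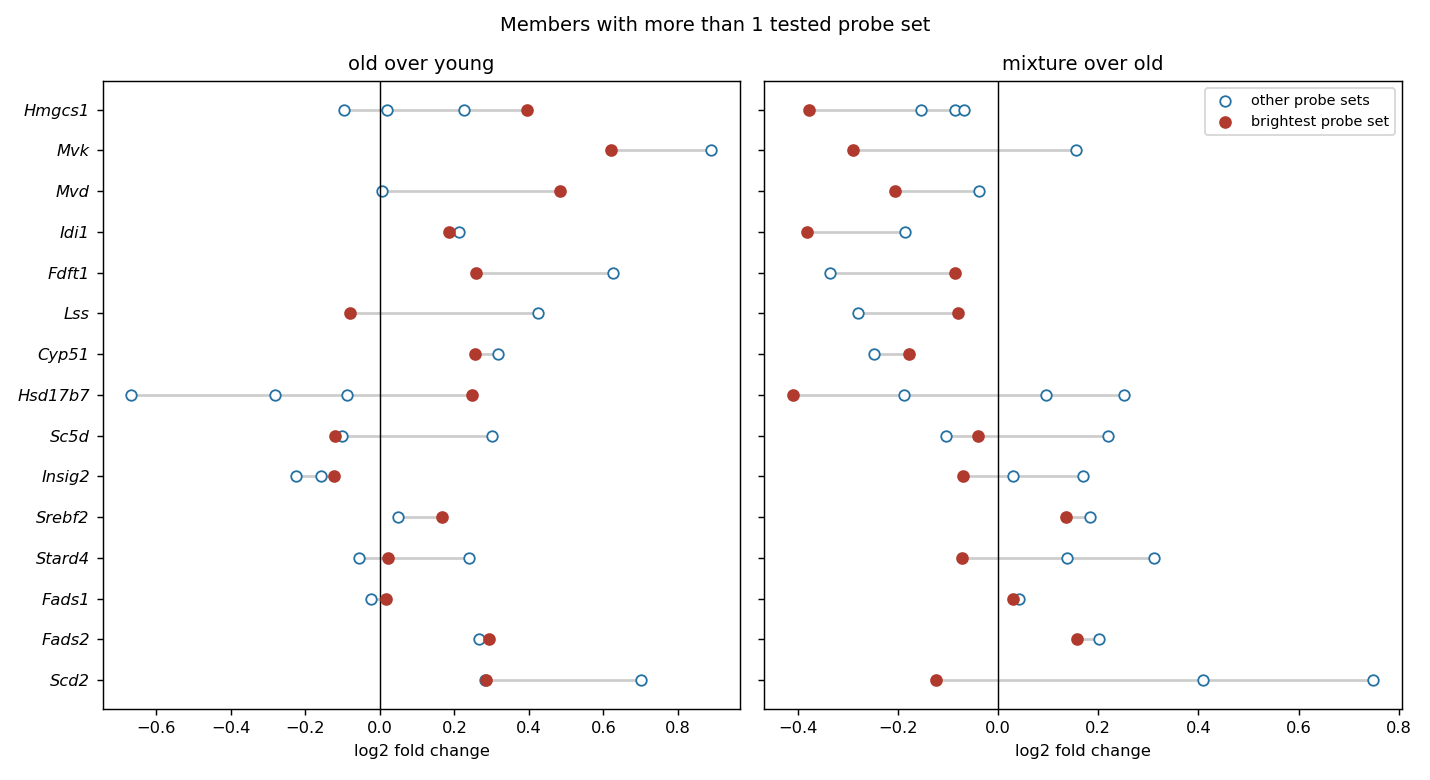
Log2 fold change of each tested probe set of the 15 members with more than 1, in old over young control on the left and mixture over old control on the right; the filled red point is the brightest probe set, used for the gene, and open points are the others. The brightest probe set of Hsd17b7 lies on the other side of 0 from its 3 other probe sets on the left, and that of Scd2 is at -0.12 on the right while its others are at 0.41 and 0.75.

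Neighbouring pathways were described from 4 further gene lists. In old over young controls 12.4% of all genes tested rose and 10.4% fell, against which the counts of these lists are to be read. Among 24 genes of sterol transport, export and oxysterol formation, 4 rose in old controls and 0 fell, a share of risers near that of all genes: Npc2 at 0.85 ± 0.10 and Npc1 at 0.42 ± 0.10, which release cholesterol from lysosomes, Lipa at 0.43 ± 0.09, the lysosomal acid lipase, and Lrp1 at 0.38 ± 0.09, a lipoprotein receptor of neurons. Npc2 read 6619, 6503, 7934, 6851 and 5978 in old controls, against 4092, 3580.0, 3588, 3868 and 3590.2 in young controls. These groups did not overlap, and the adjusted p for Npc2 was 7.31e-06. Among 23 genes of fatty acid synthesis, elongation and desaturation outside the members, 8 rose and 0 fell, with Scd1, a second stearoyl-CoA desaturase, at 0.55 ± 0.13, Acaca, which makes malonyl-CoA, at 0.44 ± 0.12, and Acly, which supplies cytosolic acetyl-CoA, at 0.42 ± 0.07. The adjusted p was 0.00399 for Scd1, 0.0135 for Acaca and 0.000432 for Acly.

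Among 13 genes of the isoprenoid branches that leave the pathway near farnesyl diphosphate, 3 rose and 1 fell. Dhdds, a subunit of the enzyme that starts dolichol synthesis, read 1321, 1235, 1165.5, 1464 and 1530.5 in old controls, against 925, 876, 904, 724 and 711 in young controls. The groups did not overlap, and the log2 fold change was 0.69 ± 0.09 with an adjusted p of 6.41e-05. Zmpste24, the protease that processes farnesylated prelamin A, rose by 0.74 ± 0.10, and Fnta, a subunit of farnesyltransferase, by 0.30 ± 0.08. Pdss2, a subunit of the enzyme that makes the ubiquinone tail, was at -0.39 ± 0.14 and was the gene that fell. Among 10 genes of SREBP processing and sterol-regulated protein degradation, Mbtps1, the site-1 protease that makes the first cut in SREBP, rose by 0.21 ± 0.06, and Rnf139, a ubiquitin ligase of the endoplasmic reticulum, was at -0.46 ± 0.08 and fell, with adjusted p of 0.0159 and 0.000462.

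Markers of several cell types moved between the same groups. In old controls 7 of 16 myelin and oligodendrocyte markers rose and 0 fell, with a summed signal of 107697 to 123618 in old controls and 86174.5 to 100308 in young controls. Of 15 astrocyte markers 11 rose, with sums of 144878 to 165892 in old controls and 107538 to 115323 in young controls. Of 14 neuron markers 8 rose, with sums of 223008 to 255365 in old controls and 205563 to 215273 in young controls. Of 12 microglia markers 10 rose and 1 fell, with sums of 38022 to 41813 in old controls and 24301 to 25860 in young controls. Choroid plexus markers, which belong to tissue outside the neocortex, summed to 10529.8 to 52403 in old controls and 28724 to 42691 in young controls, with 1 of 8 lower. Of 12 meningeal and vascular markers 1 fell, with sums of 6666 to 9227 in old controls and 8077 to 8787 in young controls. All markers tested had signal in every group, none at 0. The part of cell composition, the β-actin ratio and the 18S signal in the members' changes was not tested beyond the β-actin fit. The ratios of old controls (1.73 to 2.52) and young controls (1.42 to 1.74) barely overlapped. The fit with the ratio therefore separates it from age poorly, and it called fewer genes in all. In that fit Scd2 was at 0.25 (adjusted p 0.0586), Fasn at 0.23 (0.269), Ebp at 0.24 (0.146) and Hmgcs1 at 0.24 (0.119), all still positive but above the threshold, and without the ratio they were at 0.29, 0.28, 0.35 and 0.39 in the same order.

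**Figure D4:**
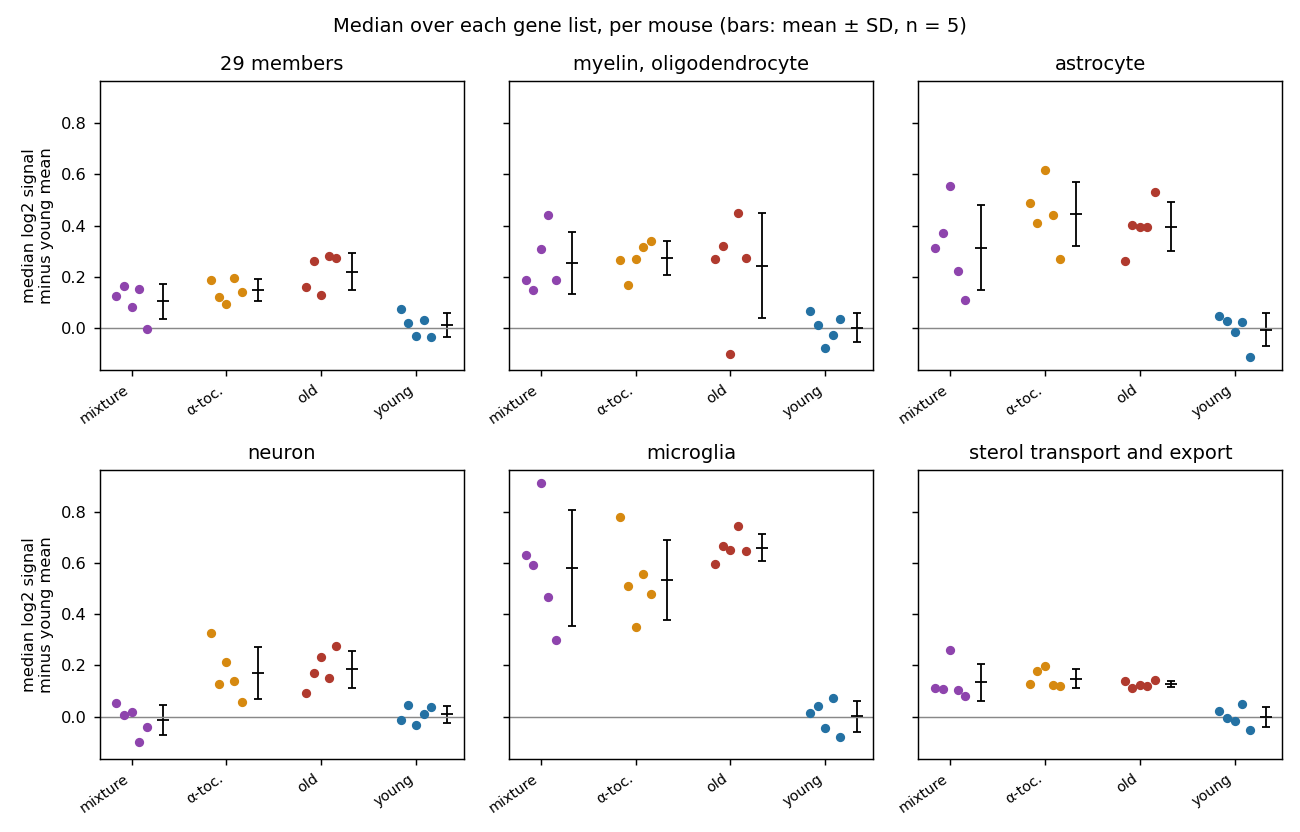
Median log2 signal over each gene list in each mouse, with each gene set to its mean in young controls; bars are mean ± SD of 5 mice. The members lie between -0.00 and 0.16 in mixture mice, 0.09 and 0.19 in α-tocopherol mice, 0.13 and 0.28 in old controls, and -0.04 and 0.08 in young controls, and the neuron markers lie between -0.10 and 0.05 in mixture mice and 0.09 and 0.28 in old controls.

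The comparison of mixture mice with old controls asks whether the combined supplement changed the old cortex. Of the 29 members, 2 fell and 0 rose, a share of 6.9% lower, where 3.16% of all genes tested fell and 1.36% rose. The members that fell were Hsd17b7 and Hmgcs1. Of the 29 log2 fold changes 23 were negative, with a median of -0.09 over the members and 0.00 over all genes tested. With the β-actin ratio in the fit, 0 of the 13351 genes were called. Hsd17b7 was then at -0.31, against -0.41 without the ratio, and Hmgcs1 at -0.19, against -0.38 without it. The β-actin ratios of mixture mice (1.22 to 1.60) lay wholly below those of old controls (1.73 to 2.52). This fit therefore separates the ratio from the supplement poorly, and nothing is concluded from its lack of calls. Of 14 neuron markers 6 fell in mixture mice, with sums of 194940 to 214627 in mixture mice and 223008 to 255365 in old controls. Of 16 myelin and oligodendrocyte markers 1 fell and 0 rose, with sums of 93970.3 to 107921 in mixture mice and 107697 to 123618 in old controls, and of 15 astrocyte markers 0 passed, with sums of 118798 to 163254 in mixture mice and 144878 to 165892 in old controls. Of 8 choroid plexus markers 1 rose and 0 fell, all 8 were positive and the median was 0.63, with sums of 32032 to 39096 in mixture mice and 10529.8 to 52403 in old controls. Of 12 meningeal and vascular markers 2 rose and 0 fell, and 11 were positive, with sums of 8341 to 9634 in mixture mice and 6666 to 9227 in old controls. Of 12 microglia markers 1 rose and 0 fell, with sums of 31508 to 49951 in mixture mice and 38022 to 41813 in old controls. The part of these measures in the falls of the members was not tested beyond that fit.

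Hmgcs1 read 13248, 16552, 13891, 12489 and 11878.5 in mixture mice, against 16915, 16016.5, 17089.8, 19866 and 18202 in old controls. Mixture mouse 2 lay inside the old control range and the other 4 mixture mice lay below all old controls. The log2 fold change was -0.38 ± 0.09 (95% interval -0.56 to -0.19) with an adjusted p of 0.0200. After quantile normalization it was -0.19 with an adjusted p of 0.169, and without old control mouse 4 or mixture mouse 5 the adjusted p was 0.0562 and 0.0627. The other 3 tested probe sets of Hmgcs1 were at -0.09, -0.15 and -0.07.

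Hsd17b7 read 887, 862, 954, 1062 and 904 in mixture mice, against 1271, 1075, 1190.2, 1340.3 and 1353 in old controls, without overlap. Mixture over old control gave -0.41 ± 0.09 on the log2 scale, with an adjusted p of 0.0161. This value comes from a probe set whose name marks probes that may match other transcripts. The next brightest, of a unique design, was at 0.10 ± 0.10 with an adjusted p of 0.642, and the other 2 were at -0.19 ± 0.18 and 0.25 ± 0.18, so the direction of Hsd17b7 depends on the probe set.

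Idi1 and Cyp46a1 came next and missed the threshold. Idi1 read 1678, 1962, 2260.3, 1989.9 and 1523 in mixture mice, against 2506, 2444, 2184, 2469 and 2584 in old controls. Mixture mouse 3 lay inside the old control range, and the log2 fold change was -0.38 ± 0.11 with an adjusted p of 0.0524. Cyp46a1 read 10509, 12296, 9929.8, 10564 and 10088 in mixture mice, against 12456, 11741, 12849.6, 12226 and 11912 in old controls. Mixture mouse 2 lay inside the old control range and the others lay below it, and the log2 fold change was -0.20 ± 0.06 with an adjusted p of 0.0683, or 0.0250 without mixture mouse 2. By role, 5 of the 6 mevalonate genes, all 3 genes of squalene and lanosterol formation and all 8 genes from lanosterol to cholesterol were negative, with medians of -0.28, -0.08 and -0.14. Insig1, at -0.32 ± 0.15, did not pass (adjusted p 0.257).

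The positive members were Fdps, Srebf1, Srebf2, Nr1h3, Fads1 and Fads2, and none passed. Fdps read 2731, 2823, 2820.1, 2287 and 2585 in mixture mice, against 1646, 2449.7, 2348.5, 2442 and 2388 in old controls. All mixture mice except mouse 4 lay above every old control, and the log2 fold change was 0.24 ± 0.12 with an adjusted p of 0.252. In the neighbouring lists, Elovl4, an elongase of very long chains, rose by 0.30 ± 0.08 and Me1, a source of NADPH for fatty acid synthesis, by 0.37 ± 0.10, while Hacd2, a dehydratase of the elongation cycle, was at -0.35 ± 0.10 and fell, 3 of 23 fatty acid genes in all. Their adjusted p were 0.0420, 0.0420 and 0.0435. Fnta, at -0.28 ± 0.08, was the 1 of 13 isoprenoid genes that fell (adjusted p 0.0488). In the lists of sterol transport and of SREBP processing, 0 of 24 and 0 of 10 genes passed.

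α-Tocopherol alone, set against old controls, gave no call. Of the 29 members 0 passed, with 2 at an unadjusted p under 0.05, and 0% of all genes tested passed in either direction, with 753 at an unadjusted p under 0.05. The lowest p among the members was that of Hsd17b7, at -0.25 ± 0.09 with an adjusted p of 0.858. Its signals were 1191, 1008, 902, 1178 and 950.0 in α-tocopherol mice, and the range overlapped that of the old controls given above. Cyp51 read 1066, 1066, 946, 1191 and 1356 in α-tocopherol mice, against 1162, 1459.6, 1162, 1414 and 1340.0 in old controls. The groups overlapped, and the log2 fold change was -0.22 ± 0.10 with an adjusted p of 0.858. Insig1 was at -0.03 ± 0.15 and Hmgcs1 at -0.14 ± 0.09. The 95% interval lay within 1.5-fold of no change for 28 of the 29 members, the exception being Nr1h3 at -0.25 to 0.75. The median was -0.07 over the members and -0.01 over all genes, and in the 4 neighbouring lists no gene passed. No cell type marker passed either. All 8 choroid plexus and all 12 meningeal and vascular markers were positive, with medians of 0.57 and 0.24. The medians of the other marker lists lay between -0.08 and 0.06. The part of the markers in the members' values was not tested.

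Mixture mice and α-tocopherol mice were compared directly, since both were old and supplemented but differed in the presence of γ-tocopherol and in the α-tocopherol dose. Of the 29 members 0 passed, with 3 at an unadjusted p under 0.05, and 0% of all genes tested passed, with 1163 at an unadjusted p under 0.05. Scd2 had the lowest p, with 25461, 24240.5, 24241, 22957 and 23191 in mixture mice, against 32318, 27411, 28189, 26749 and 25089 in α-tocopherol mice. Mixture mouse 1 lay above α-tocopherol mouse 5 and the groups otherwise stood apart. The log2 fold change was -0.21 ± 0.07 (95% interval -0.35 to -0.08) with an adjusted p of 0.240, and it changed sign, to 0.05, after quantile normalization. Hmgcs1 was at -0.24 ± 0.09, with a 95% interval of -0.42 to -0.05 and an adjusted p of 0.404. Scap was at -0.29 ± 0.14 with an interval of -0.57 to -0.01, and Idi1 at -0.21 ± 0.11 with an interval of -0.44 to 0.02. For 28 of the 29 members the interval lay within 1.5-fold of no change, the exception being Insig1 at -0.60 to 0.03. No gene of the 4 neighbouring lists passed. Of 14 neuron markers 13 were negative, with a median of -0.18. Sums of neuron markers were 194940 to 214627 in mixture mice and 211093 to 257199 in α-tocopherol mice. The medians of the other marker lists lay between -0.07 and 0.15, and 0 markers of any list passed. The part of the markers in the members' values was not tested. Hsd17b7, which with Hmgcs1 was called in mixture mice and not in α-tocopherol mice against old controls, was at -0.16 ± 0.09 with an adjusted p of 0.668, so neither gene differed past the threshold between the supplemented groups.

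The supplemented groups were also set against the young controls, which they share with the comparison of old and young controls. In mixture mice 6 members rose and 1 fell, shares of 20.7% and 3.45%, where 9.74% of all genes tested rose and 9.59% fell. In α-tocopherol mice 9 members rose and 1 fell, shares of 31.0% and 3.45%, where 11.7% of all genes tested rose and 10.5% fell. Fdps was at 0.76 ± 0.12 in mixture mice, 0.69 ± 0.12 in α-tocopherol mice and 0.51 ± 0.12 in old controls, each over young controls and each past the threshold. Insig1 was at 0.56 ± 0.15, 0.85 ± 0.15 and 0.88 ± 0.15 in the same order and passed in each, as did Mvd at 0.28 ± 0.09, 0.34 ± 0.09 and 0.48 ± 0.09 on its brightest probe set. In mixture mice the other probe set of Mvd was at -0.03, with an adjusted p of 0.854, and the mixture call was also lost without young control mouse 2 or 5 or mixture mouse 2 or 3 (adjusted p 0.0585 to 0.0733). The mean of both Mvd probe sets was at 0.12 in mixture mice and 0.18 in α-tocopherol mice, with adjusted p of 0.295 and 0.126.

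Markers of other cell types also differed between these groups. In mixture mice over young controls, 8 of 15 astrocyte, 8 of 12 microglia, 6 of 16 myelin and oligodendrocyte, 3 of 12 meningeal and vascular, 1 of 14 neuron and 0 of 8 choroid plexus markers rose, and 0 of any list fell. In α-tocopherol mice over young controls, 11 astrocyte, 9 microglia, 8 myelin and oligodendrocyte, 4 meningeal and vascular, 6 neuron and 0 choroid plexus markers rose, and 1 myelin and oligodendrocyte marker fell. Sums of astrocyte markers were 118798 to 163254 in mixture mice, 139027 to 164882 in α-tocopherol mice and 107538 to 115323 in young controls. Sums of microglia markers were 31508 to 49951 in mixture mice, 35190 to 42799 in α-tocopherol mice and 24301 to 25860 in young controls. The myelin and oligodendrocyte markers summed to 93970.3 to 107921 in mixture mice, 106737 to 129068 in α-tocopherol mice and 86174.5 to 100308 in young controls. Their part in the members' changes was not tested.

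Srebf1 read 2778, 2591, 3553, 2121 and 2174 in mixture mice and 3055.5, 2443, 3086, 2505 and 2119 in α-tocopherol mice, all above the highest young control. It was at 0.46 ± 0.12 in mixture mice and 0.47 ± 0.12 in α-tocopherol mice over young controls, and passed in both (adjusted p 0.0112 and 0.00858). Fads2 passed in both as well, at 0.45 ± 0.11 and 0.40 ± 0.11. Srebf2 passed in mixture mice, at 0.30 ± 0.09 with an adjusted p of 0.0247, and was at 0.21 with an adjusted p of 0.114 in α-tocopherol mice. The Srebf2 call in mixture mice was lost without young control mouse 4 (adjusted p 0.0606), without mixture mouse 2 (0.0868) and with the mean of its probe sets (0.0977). Hmgcs1 was at 0.02 ± 0.09 with an adjusted p of 0.916 in mixture mice, and at 0.25 ± 0.09 with an adjusted p of 0.0412 in α-tocopherol mice. The call in α-tocopherol mice was lost in 13 of 23 alternatives. It was at 0.14 after quantile normalization (adjusted p 0.155), 0.15 after cyclic loess (0.136), 0.07 with the mean of its probe sets (0.429) and had an adjusted p of 0.0520 with the replicate block. Without young control mouse 1, 2, 3 or 4 or α-tocopherol mouse 1 or 4 the adjusted p was 0.0638 to 0.121.

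Scd2, Mvk and Tm7sf2 completed the rises in α-tocopherol mice, at 0.38 ± 0.07, 0.53 ± 0.16 and 0.36 ± 0.12 over young controls. In mixture mice the same genes were at 0.16 ± 0.07, 0.33 ± 0.16 and 0.33 ± 0.12, with adjusted p of 0.0891, 0.150 and 0.0521. In α-tocopherol mice the Mvk call was lost without young control mouse 4 or 5 or α-tocopherol mouse 3 or 4 (adjusted p 0.0520 to 0.0718). The Tm7sf2 call was lost without young control mouse 2, 4 or 5 or α-tocopherol mouse 2, 3 or 4 (adjusted p 0.0559 to 0.0964). The members that fell were Insig2 in mixture mice, at -0.19 ± 0.07 with an adjusted p of 0.0480, and Sc5d in α-tocopherol mice, at -0.20 ± 0.07 with an adjusted p of 0.0409. Insig2 read 2759.8, 2853, 2358, 2399 and 2433 in mixture mice, against 2977, 2959.6, 2657, 2882.5 and 3154 in young controls, with overlap. Its call was lost in 13 of 23 alternatives, among them equal array medians (-0.13, adjusted p 0.321), the mean of its probe sets (-0.12, 0.164), the compared groups alone (adjusted p 0.0903), the β-actin ratio (0.0636), the replicate block (0.0584) and no trend (0.0553). Without young control mouse 1, 2, 4 or 5 or mixture mouse 3, 4 or 5 the adjusted p was 0.0730 to 0.125. Sc5d read 1374, 1464, 1515, 1604 and 1636 in α-tocopherol mice, against 1671, 1664, 1645, 1801 and 1959.5 in young controls, without overlap. The mean of the 3 Sc5d probe sets was at 0.03, with an adjusted p of 0.777, so its direction depended on the probe set. The Sc5d call was lost in 11 of 23 alternatives, with -0.09 for equal array medians (adjusted p 0.455) and an adjusted p of 0.0659 to 0.121 without young control mouse 4 or 5 or α-tocopherol mouse 1, 2 or 3.

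Within the groups, the median of the 29 members separated the mice as follows. It was 0.13, 0.16, 0.08, 0.15 and -0.00 in mixture mice and 0.19, 0.12, 0.09, 0.19 and 0.14 in α-tocopherol mice, on the log2 scale relative to the young control mean. In old controls it was 0.16, 0.26, 0.13, 0.28 and 0.27, and in young controls 0.08, 0.02, -0.03, 0.03 and -0.04. Every old control and every α-tocopherol mouse lay above every young control, while mixture mouse 5 lay inside the young control range. Mixture mouse 5 had 14 of its 29 members above their young mean, against 22 to 25 in old controls. The SD between mice of one group was 0.06.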

How the data were processed

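The authors deposited 1 linear signal intensity per probe set and array, and the submitters' processing notes name GCOS with no version. The 2% trimmed mean was 1000 on all 20 arrays, and no further scaling was applied. No source used here gives the background step or detection calls. The RNA was poly(A) RNA primed with oligo-dT, per the labels' protocols. Such scaling hides any change in total messenger RNA.

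Of 45037 probe sets that are not controls, 34945 had 1 gene symbol, 932 several and 9160 none, and 34741 matched RefSeq (GRCm38.p6). The brightest 60% of probe sets (mean signal above 184) were kept, and the brightest probe set with 1 symbol stood for each gene. limma 3.58.1 in R 4.3.3 (lmFit, contrasts, eBayes with a trend, all 20 arrays, two-sided) was run on log2(signal + 16), with Benjamini-Hochberg adjustment over 13351 genes and a threshold of 0.05. The code was tested on simulated data. The number of arrays limits the precision.

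The members and gene lists were chosen with earlier results of these data known. Genes were named where they passed the threshold in a comparison, had the lowest p where few did, or missed it narrowly, together with the genes that place a role in the pathway. Alternatives were another pseudocount (1 or 64), no limit on low signal or the top 40% of probe sets, quantile and cyclic loess normalization, equal array medians, a replicate block, no trend, the mean of all tested probe sets, the compared groups alone, the β-actin ratio as a model term, and leaving out each mouse. A further alternative, using only probe sets whose names do not mark possible matches to other transcripts, was chosen after seeing the data. Protein sequences were not used here.

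Replicate numbers were not taken to pair the mice in the main fit. Over 30 pairs of mice with the same number, correlations of deviations from group means ran from -0.12 to 0.20, 5 above 0.1. Over 120 pairs with different numbers they ran from -0.23 to 0.19, 7 above 0.1. The medians were 0.02 and -0.01 in the same order. These values do not settle whether the numbers pair the mice, and the replicate block is given as an alternative.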

Additional observations from a re-analysis of the deposited data

Results flagged for a closer look

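For each member and group, the gap between the highest or lowest mouse and the next was divided by the range of the 5 mice. In 4 of 116 such groups it exceeded Dixon's 95% limit of 0.71, and chance gives about 1 in 20. For Mvk, mixture mouse 3 read 845.0 and the other mixture mice 585.6 to 612.1, a ratio of 0.880. For Fdps, old control mouse 1 read 1646 and the other old controls 2348.5 to 2449.7, a ratio of 0.894, so the rise of Fdps in old over young controls was measured with this low mouse included. Insig1 in α-tocopherol mouse 4 read 2181, with 1599 to 1700.0 in the others, a ratio of 0.802. Cyp46a1 in mixture mouse 2 read 12296, with 9930 to 10564 in the others, a ratio of 0.7103, and without this mouse Cyp46a1 passed the threshold in mixture over old controls (adjusted p 0.0250, limma).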

How the results depend on the processing

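Over 39 gene results, 897 values were recomputed under the alternatives: 798 kept their direction and side of the threshold, 87 kept the direction and lost the call, 5 gained one and 7 reversed. The count of members called in old over young controls, 10, ran from 7 to 14 except 17 with equal array medians, and from 8 to 12 when 1 mouse was left out. Besides the main fit, counts of all genes in old over young controls are given here only for equal array medians and the β-actin fit. The range of the member count is therefore not read as a change particular to the members. For mixture over old controls, 2 members became 1 after quantile or cyclic loess normalization, 4 with equal array medians, 0 with the mean of all tested probe sets or the β-actin covariate, 1 with probe sets of unmarked names, and 1 to 3 when 1 mouse was left out (1 without old control mouse 4 or mixture mouse 5). Over all genes, 3039 calls in old over young controls became 1158 with the β-actin covariate. The 603 in mixture over old controls became 83 after quantile and 91 after cyclic loess normalization, 311 without the trend, 285 with the mean of probe sets, 319 with the compared groups alone, 0 with the β-actin covariate, and 186 to 593 when 1 mouse was left out (239, 294 and 359 without old control mouse 3, 4 and 5, 375 and 186 without mixture mouse 4 and 5). Of these calls 181 of 603 were higher, against 34 of 678 with equal array medians and 39 of 91 after cyclic loess. With equal array medians 2633 of 3168 calls were higher in α-tocopherol over young controls, against 1566 of 2970 as deposited, and 1576 of 2169 in mixture over young controls, against 1300 of 2580. Mixture over α-tocopherol gave 0 calls, 1 with the replicate block, and 0 to 100 when 1 mouse was left out, 100 being without α-tocopherol mouse 5. With the replicate block 12 members were called in old over young controls and 2 in mixture over old controls. Over young controls, 10 members were called in α-tocopherol mice and 7 in mixture mice. For these comparisons the counts of all genes under the block are not given here. The member counts are therefore not read as a change particular to the members. Scd2 in mixture over α-tocopherol reversed to 0.0513 after quantile normalization and 0.0808 with the mean of probe sets, and Sc5d in α-tocopherol over young controls to 0.0306 with the mean of probe sets. With probe sets of unmarked names, Hsd17b7 reversed to 0.0148 in α-tocopherol and 0.0966 in mixture over old controls, and Mvd to 0.00948 in α-tocopherol over old controls and -0.0321 in mixture over young controls; here and for the mean of probe sets, the alternative itself reads other probes of the gene. For the other changes the cause was not tested. In old over young controls Mvd was then at 0.01, with an adjusted p of 0.977.

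The 5 mice a group, the probe sets that stand for each gene and the lack of detection calls limit what these arrays show. Messenger RNA was measured, not enzyme activity, sterols or protein cleavage.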

Other observations

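The neighbouring lists were also set against young controls in supplemented mice, whose young controls are those of the comparison of old and young controls. Over all genes tested 9.74% rose and 9.59% fell in mixture mice, and 11.7% rose and 10.5% fell in α-tocopherol mice. In sterol transport, 7 of 24 genes rose in mixture mice and 0 fell, and 6 rose and 1 fell in α-tocopherol mice. Abca1, which loads cholesterol onto lipoproteins, rose by 0.43 in mixture mice and 0.32 in α-tocopherol mice over young controls, and passed in neither supplemented group over old controls. Lcat, which esterifies cholesterol on lipoproteins, rose by 0.45 in mixture mice, and Mylip, a ubiquitin ligase that acts on lipoprotein receptors, was at -0.36 and fell in α-tocopherol mice. In fatty acid synthesis, 8 of 23 genes rose in mixture mice and 1 fell, and 6 rose and 1 fell in α-tocopherol mice. Hacd1, a dehydratase of the elongation cycle, was the gene that fell, at -0.59 in mixture mice and -0.46 in α-tocopherol mice over young controls. In the isoprenoid branches, 3 of 13 genes rose in mixture mice and 0 fell, and 4 rose and 2 fell in α-tocopherol mice, with Dhdds at 0.69 and 0.80. All values are log2 fold changes from the limma fit.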
